A study of Arabidopsis thaliana with 27 samples.

Results

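The regions described here are the binding sites of BRAHMA (BRM) in Arabidopsis thaliana seedlings that lay outside both REF6 binding and wild-type H3K27me3. They were the peaks of the first BRM-GFP list that shared no base pair with a peak of the first REF6-GFP list or with a peak of either wild-type H3K27me3 list. Of 12230 peaks in that list, 9417 met this rule. A further 2409 overlapped REF6 but no wild-type mark and are called the REF6-overlapping BRM peaks, and 404 overlapped a wild-type mark. The 9417 peaks were thus chosen by the measured peak positions of these 4 lists, and their lack of REF6 and of the wild-type mark is the choice itself and not a result.

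BRM is the ATPase of a plant SWI/SNF complex, which uses ATP to slide or evict nucleosomes and so changes which stretches of DNA other proteins can reach. H3K27me3 is the trimethylated lysine of histone H3 that Polycomb group proteins deposit over genes kept silent, and REF6 is a Jumonji demethylase that removes it. In seedlings, BRM is known both for keeping Polycomb marking off certain genes and for occupying many active genes.

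All libraries came from 14-day-old seedlings grown in long days. The first BRM-GFP and REF6-GFP libraries (1 each) carry no further genotype in their labels. The later GFP libraries, made with the same GFP antibody, were REF6-GFP in wild type and in brm-1 (2 each), BRM-GFP in wild type (1) and BRM-GFP in ref6-1 (2). For one of the latter, the label states that the BRM promoter drives the fusion. The H3K27me3 libraries were 2 of wild type (WT) and 2 for each mutant, namely brm-1, ref6-1 and their double mutant brm-1 ref6-1 (below brm, ref6 and brm ref6). The alleles are named in the labels without further description, and nothing says that replicates were separate plantings, so each test measures the spread between these libraries only.

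The files hold peak positions and the authors' score, which grows with the negative logarithm of the peak caller's p-value and starts at 50. Read depth is unknown, so a peak missing from a list may reflect depth. The later BRM-GFP lists were short (1466 to 2564 peaks). The H3K27me3 lists covered 5.31 to 11.5 Mb, and ref6 replicate 2 stood apart with 5582 wide peaks (median 1575 bp, where the other 7 had medians of 289 to 527 bp). Its values are given apart from those of replicate 1 where single libraries are listed. Means, tests and calls that need both ref6 libraries include it.

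The 9417 peaks lay mostly at the ends of genes, where promoters and terminators are. They had a median width of 525 bp, covered 6.00 Mb and had a median score of 147 (50.01 to 3219). A gene end fell inside 5115 of them (54.3%), and 338 (3.59%) spanned a whole gene. Another 1559 (16.6%) lay within a gene body, 1673 (17.8%) within 1000 bp of a gene and 732 (7.77%) farther away. The gene table gives no strand, so 5′ and 3′ ends were not separated. Measured from the midpoint of each peak to the nearest end of a protein-coding gene, the median distance was 17 bp inside the gene, and 6215 peaks (66%) were within 500 bp of an end.

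**Figure D1:**
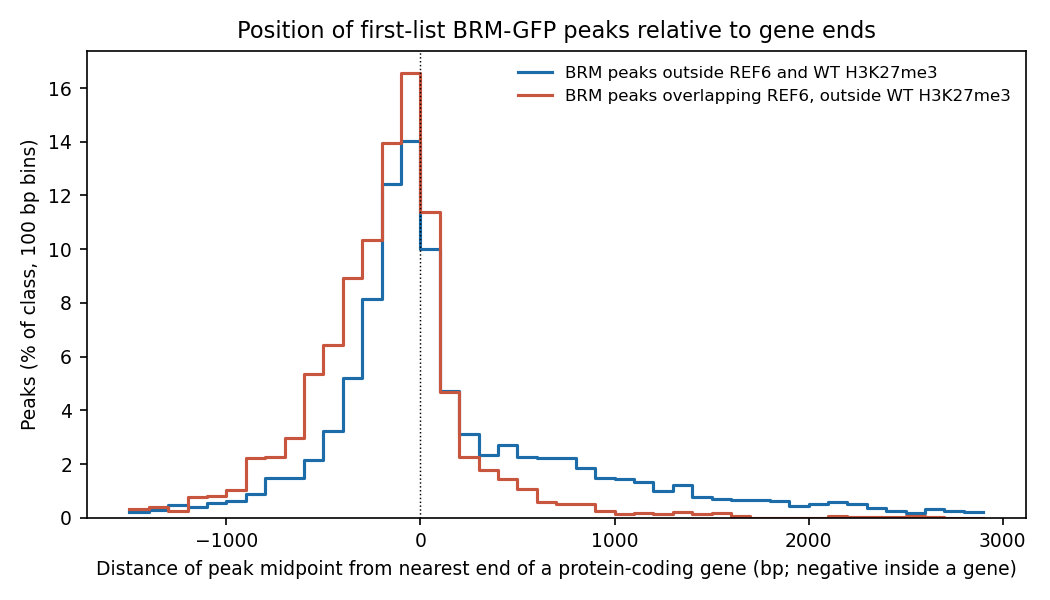
Share of peaks (percent of the class, in 100 bp bins) by the distance in bp from the peak midpoint to the nearest end of a protein-coding gene, with negative values inside a gene, for the 9417 BRM peaks outside REF6 and the 2409 that overlap REF6. Both classes are highest beside the gene end, and the peaks outside REF6 extend farther into intergenic DNA.

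The REF6-overlapping BRM peaks sat further into genes. Their median midpoint was 148 bp inside the gene end, and 0.540% lay more than 1000 bp from any gene (exact 95% interval 0.288 to 0.921), against 7.77% (7.24 to 8.33) of the peaks outside REF6. These intervals cover counting error within a single list only, and no test across libraries was possible for position. The REF6-overlapping peaks were also wider (median 632 bp) and higher in score (median 200.5). Distance to wild-type H3K27me3 was similar in the 2 classes, with medians of 8044 bp and 7682 bp. The peaks outside REF6 were spread over all 5 chromosomes at 72.1 to 84.4 per Mb.

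The rule turned on single base pairs at its edge. The nearest peaks inside it lay 1 bp (AT4G33140), 2 bp (AT1G03440) and 2 bp (AT4G09515) from an excluding peak. Just outside it, peaks at UGT74E2, ERF8 and AT1G80940 were left out for an overlap of 1 bp each.

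Each peak was named by the gene it overlapped most, or else by the nearest gene within 1000 bp. This gave 7162 genes, 6445 of them protein-coding. A single peak was assigned to 5909 genes, 2 peaks to 1036 and at least 3 to 217. GT2, which encodes a trihelix transcription factor, had 6. Of the 8685 peaks with a gene, 7865 (90.6%) were named by a protein-coding gene, 489 by a long noncoding RNA, 45 by a tRNA and 26 by a microRNA gene.

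Several of the strongest peaks lay at regulatory genes. Of the 10 highest scores 7 were exactly 3100, so no order is read among these peaks. GATA1, a zinc-finger transcription factor gene, had a score of 3219 (TAIR10, chr3:8685172-8687593, 2422 bp across one gene end). WRKY11, whose product restrains defence responses, lay under a 2770 bp peak scored 3100 (chr4:15289438-15292207). TEM1, which encodes a repressor of FT and so of flowering, had the same score over 2629 bp. These 3 peaks were at least 3099 bp from wild-type H3K27me3 and held none in any mutant library.

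The rest of the 10 highest were TCH3 (a calmodulin-like protein), the abscisic acid receptor gene PYL4 (3061), the glycosyltransferase gene LGT8 (2954), a noncoding locus beside TCP9 (AT2G45685), and AT1G25550, AT4G32030 and AT5G25280. The widest peak of all, 10487 bp with a score of 2222, ran across one end of BRM itself. Sequence from the BRM transgene and from the native locus maps to the same place, so the 2 sources cannot be told apart there.

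The rule removes BRM peaks under REF6 or on wild-type H3K27me3, so genes marked in wild type lose sites by construction. The part of this in the shares below was not tested. A gene called unbound may still hold a first-list BRM peak outside this class. The kinds of genes at these sites were described within that limit. For this, a gene counted as bound when one of the 9417 peaks touched it or came within 1000 bp of it, which held for 35.4% of the 27432 protein-coding genes. The lists were drawn up with earlier results of these data known, so their counts are a description with no test. Gene length and crowding were not adjusted for. Lists and families were matched by gene symbol and are incomplete. Relatives under other symbols, such as AT4G34760 (SAUR50), BZIP53, TIP and DEAR2, were not counted in them. Entries without a match in the gene table were left out, such as JMJ13, RGA, ERF1 and CDF1. The SWI/SNF list lost most, with 11 of 18 entries found.

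Hormone and clock genes were bound often. The brassinosteroid list had 17 of 20 genes bound, with a median best score of 258 against 177 over all bound protein-coding genes. It included BIN2, the kinase that shuts the pathway off (1492), the receptor gene BRI1 (1175), its co-receptor gene BAK1 (903) and the biosynthetic gene CPD (591), whereas the transcription factor gene BZR1 had no peak in this class. The circadian clock list also had 17 of 20 (median 142.5), with the evening-complex gene PCL1, also called LUX (680), TOC1 (570) and LHY (335), and without ELF3, RVE8 and PRR3.

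Ethylene genes followed with 8 of 10 (median 413). They included EBF1, the F-box gene that targets EIN3 for degradation (1122), and CTR1, the kinase that represses the pathway (1084). Among 27 abscisic acid genes, 17 were bound (median 293), and the top of that list was made of receptor genes: PYL4, PYL5 (1335), PYL6 (954) and PYR1 (918). The biosynthetic gene NCED3 had no peak in this class. Of 19 gibberellin genes 10 were bound, among them the receptor gene GID1B (1203), the DELLA genes RGL1 (923) and GAI (683) and the F-box gene SLY1 (882), and GA20OX1, GA20OX2, GA3OX1 and GA3OX2 were not.

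Light signalling had 17 of 26 genes bound (median 249). PIL6, the phytochrome-interacting factor also called PIF5, scored 1117, the photoreceptor gene PHYA 1004 and PIF4 902, while HY5, HYH and HFR1 had none in this class. Of the 25 B-box genes, zinc-finger proteins many of which act in light responses, 20 were bound, led by BBX28 (1387) and COL4 (1281). The ERF and DREB genes had 19 of 29, led by ERF4 (2747) and ERF2 (1339), and the TCP genes, growth regulators, had 13 of 22 with the highest median score of the larger lists (774).

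Housekeeping genes had 11 of 13 bound (median 310), led by the ubiquitin gene UBQ10 (1802). Families with shares nearer the 35.4% of all genes were WRKY (32 of 67), NAC (33 of 81), Aux/IAA and ARF (18 of 46), glutathione transferases (17 of 47) and LBD (12 of 35). Within LBD, the nitrogen-responsive genes LBD37 (1573), LBD38 (1267) and LBD39 (931) led. Among the genes listed, shares below the 35.4% were found for cytochrome P450 genes (55 of 228), MYB genes (26 of 115), SAUR genes (3 of 16) and AGAMOUS-like MADS genes (12 of 77).

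**Figure D2:**
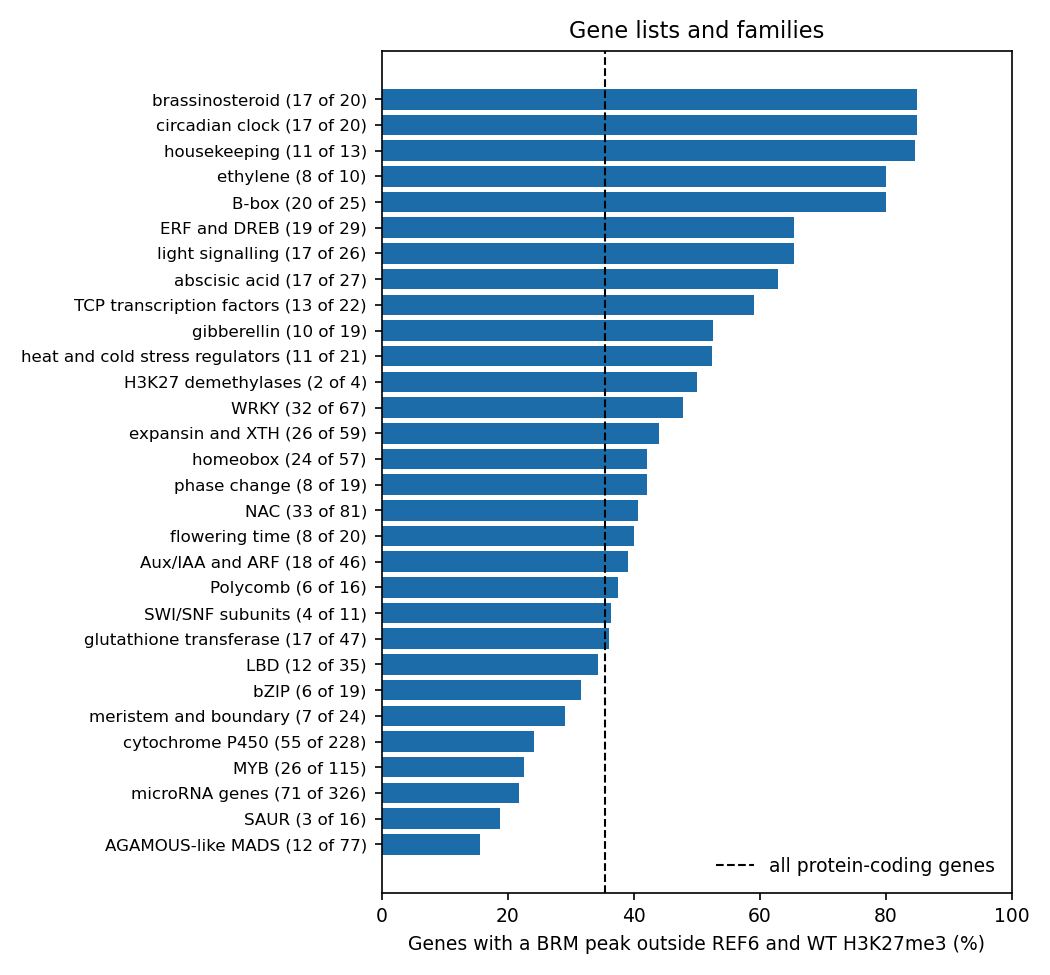
Percent of genes in each list or family with one of the 9417 BRM peaks on the body or within 1000 bp, with the counts beside each name. The dashed line is the 35.4% of all 27432 protein-coding genes, and brassinosteroid, clock and housekeeping genes lie farthest above it while AGAMOUS-like MADS genes lie farthest below.

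Among the regulators of chromatin themselves, 6 of 16 Polycomb genes were bound, with VRN1 (670) and EMF1 (409) ahead and no peak of this class at CLF, SWN, FIE or EMF2. REF6 (184) and ELF6 (112) were the 2 bound of the 4 H3K27 demethylase genes matched, and JMJ13 was not matched. The remaining lists had 11 of 21 for heat and cold regulators, 26 of 59 for expansins and XTH, 24 of 57 for homeobox, 8 of 19 for phase change, 8 of 20 for flowering time, 4 of 11 for SWI/SNF subunits, 7 of 24 for meristem and boundary and 6 of 19 for bZIP genes.

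Few of these sites were found again in the later BRM-GFP lists, and those that were had high first scores. The later wild-type list overlapped 486 of the 9417 (5.16%, exact 95% interval 4.72 to 5.63). The ref6 lists overlapped 637 (6.76%, 6.27 to 7.29) and 762 (8.09%, 7.55 to 8.66). At least 1 of the 3 lists held 1238 peaks (13.1%, against 16.5% of all 12230 first-list peaks), and all 3 held 190 (2.02%, against 2.94%). The remaining 8179 were in none.

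Recovery rose with the first-list score in each library. In the lowest quartile of scores (50.01 to 84.7), 0.765% of peaks were in the later wild-type list and 1.32% and 0.893% in the ref6 lists. In the highest quartile (280 and above) the shares were 16.3%, 20.1% and 24.9%. The 190 peaks in all 3 lists had a median first score of 970, and the 8179 in none had 129.

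**Figure D3:**
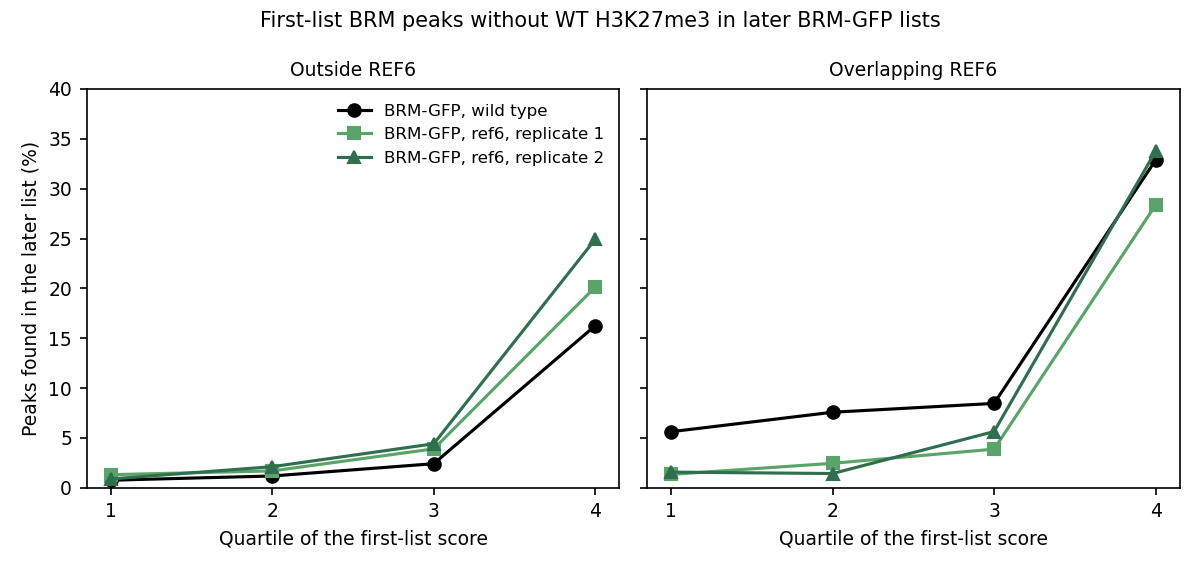
Percent of first-list BRM peaks found in each later BRM-GFP list, by quartile of the first-list score (quartile 1 lowest), for peaks outside REF6 (left) and overlapping REF6 (right). In the highest quartile outside REF6 the values are 16.3%, 20.1% and 24.9%, and the wild-type line lies below both ref6 lines on the left in that quartile.

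Each ref6 list held more of the sites than the wild-type list, but the ref6 lists were also longer. The difference was 2.27 percentage points (ref6 7.43% ± 0.939 SD, n = 2; wild type 5.16%, n = 1; two-sided exact permutation p = 0.333, the smallest possible with 3 libraries; adjusted p = 0.583 over 7 tests). With all 3 lists cut to the length of the shortest, it turned to −0.860 points (exact permutation p = 0.667). Wild type and ref6 were therefore not distinguished in BRM recovery at these sites.

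The REF6-overlapping BRM peaks were recovered more often, at 16.98% in wild type and 12.4% and 14.7% in ref6. The share outside REF6 minus the share overlapping REF6 was −11.8 points in wild type, −5.61 in ref6 replicate 1 and −6.56 in replicate 2. All 3 libraries had the same sign, with a mean of −8.00 (exact sign-flip permutation p = 0.25, the smallest that 3 libraries allow; adjusted p = 0.583). Within the highest score quartile 32.9%, 28.4% and 33.7% of REF6-overlapping peaks were recovered, each above the value outside REF6. The order was not the same in every quartile. In quartile 2, ref6 replicate 2 held 1.43% of REF6-overlapping peaks against 2.12% outside REF6, and in quartile 3, ref6 replicate 1 held 3.88% against 3.91%.

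Of the 10 recovered sites with the highest lowest score over the later lists, 3 were at TCP genes, and AT5G25280 came first. TCP8, a class I TCP transcription factor gene, scored 266 in the first list and 1058, 2046 and 1722 in the later wild-type list and the ref6 lists. AT1G35560, which is TCP23, scored 925 in the first list and 871, 1869 and 1528 in the later ones. AT5G25280 went from 3100 to 1160, 1733 and 1456, and AT5G23280, which is TCP7, from 1288 to 463, 338 and 397. At TCP8 each later score exceeded the first, in lists with far fewer peaks.

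PDX1.2, which encodes a vitamin B6 pathway protein, and a site more than 1000 bp from any gene on chromosome 1 had the same order, 139 and 127 in the first list against 347 to 625 and 418 to 701 later. GATA1 had the reverse, 3219 against 318, 416 and 384. Scores depend on depth, so they rank sites within a list and are not levels of binding.

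Part of this recovered set was also called for REF6-GFP in later libraries. The first REF6 list had none of these sites by the rule. The later REF6-GFP lists overlapped 40 and 54 of the 9417 in wild type (0.425% and 0.573%) and 43 and 46 in brm (0.457% and 0.488%). At least 1 list touched 80 peaks (0.850%, against 9.13% of all first-list BRM peaks), and 20 were in all 4. The brm and wild-type shares differed by −0.0266 points (brm 0.473% ± 0.0225, wild type 0.499% ± 0.105, SD, n = 2 each; two-sided exact permutation p = 1, smallest possible 0.333; adjusted p = 1).

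The overlap was concentrated among the sites with BRM in the later lists. A later REF6-GFP peak touched 37 of the 190 sites in all 3 later BRM lists (19.5%) and 17 of the 8179 in none (0.208%). TCP8, AT1G35560, AT5G25280, PDX1.2, AT2G07981 and the chromosome 1 intergenic site were in all 4 later REF6-GFP lists, which makes 6 of the 10 highest-scoring recovered sites. PAR2 and PC-MYB1 were also among the 20. BRM-GFP and REF6-GFP were precipitated with the same GFP antibody, and the part of that in the shared sites was not tested.

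Peaks found only in wild type or only in ref6 were few. The wild-type list alone held 172 (1.83%, against 3.16% of all first-list BRM peaks and 8.22% of those overlapping REF6), led by BZIP53, a seed maturation regulator (first score 905, wild type 158, absent from both ref6 lists), AT3G52470 (wild type 144), the kinase gene APK2B (142), AT5G05300 (119) and the NAC gene TIP (109). Both ref6 lists without wild type held 143 (1.52%, against 1.69% and 2.2%), led by AT2G29670 (165 and 200), DEAR2, a DREB-type repressor gene (164 and 159), AT3G15810 (142 and 168), AT2G18090 (136 and 176) and AT5G41400 (180 and 131). With 1 wild-type library, these sets have no replicate check.

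H3K27me3 appeared at a small share of the sites in every mutant library. In brm it touched 197 of 9417 (2.09%, exact 95% interval 1.81 to 2.40) and 181 (1.92%, 1.65 to 2.22). In ref6 the counts were 26 (0.276%, 0.180 to 0.404) and 183 (1.94%, 1.67 to 2.24). In brm ref6 they were 142 (1.51%, 1.27 to 1.77) and 83 (0.881%, 0.703 to 1.09). The brm libraries were close to each other, whereas the ref6 libraries spanned nearly the whole range, with the wide-peaked replicate 2 at the top.

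The rule fixes the wild-type value at 0, so the rate in a library of the same genotype was measured with a rule that used a single wild-type list. Of 9478 peaks outside REF6 and wild-type replicate 1, 0.644% carried the mark in wild-type replicate 2, against 2.595% and 2.416% in brm, 0.390% and 2.31% in ref6 and 1.80% and 1.13% in brm ref6. Of 9518 outside wild-type replicate 2, 1.06% carried it in wild-type replicate 1, against 2.94% and 2.70%, 0.515% and 2.51%, and 2.15% and 1.29%. All 4 brm values and all 4 brm ref6 values were above the wild-type rate, and ref6 replicate 1 was below it both times. No test was made on this comparison.

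None of the genotypes was separated from another by these shares. For brm the mean was 2.01% ± 0.120, for ref6 1.11% ± 1.18 and for the double mutant 1.19% ± 0.443 (SD, n = 2 each). The difference was 0.897 points for brm minus ref6 (two-sided exact permutation p = 0.667, adjusted p = 0.933). It was 0.812 for brm minus brm ref6 (exact permutation p = 0.333, adjusted p = 0.583) and 0.0850 for brm ref6 minus ref6 (exact permutation p = 1, adjusted p = 1). With 2 libraries against 2 the smallest possible p is 0.333. Cut to lists of equal length, the first and the last turned to −0.276 and −0.595 points, and without ref6 replicate 1 the last was −0.749.

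The contrast with REF6-overlapping BRM peaks turned with genotype. Those peaks carried the mark in 0.374% and 0.457% of cases in brm, below the sites outside REF6, and in 3.65% and 6.89% in ref6 and 7.39% and 4.94% in brm ref6, above them. The share outside REF6 minus the share overlapping REF6 was 1.72 and 1.47 points in brm, −3.38 and −4.95 in ref6 and −5.88 and −4.06 in brm ref6. The sign was the same in both replicates of each genotype, and the ranges of brm and of the 4 libraries without REF6 did not overlap.

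Over all 6 mutant libraries the mean difference was −2.51 points (exact sign-flip permutation p = 0.125, adjusted p = 0.583; smallest possible 0.0313), positive in 2 and negative in 4. The mean difference in brm exceeded that in the 4 libraries without REF6 by 6.16 points, a split chosen after the values were seen and therefore given with no test. For the REF6-overlapping peaks the share in brm minus that in the other 4 was −5.30 points, and for the sites outside REF6 it was 0.855 points.

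**Figure D4:**
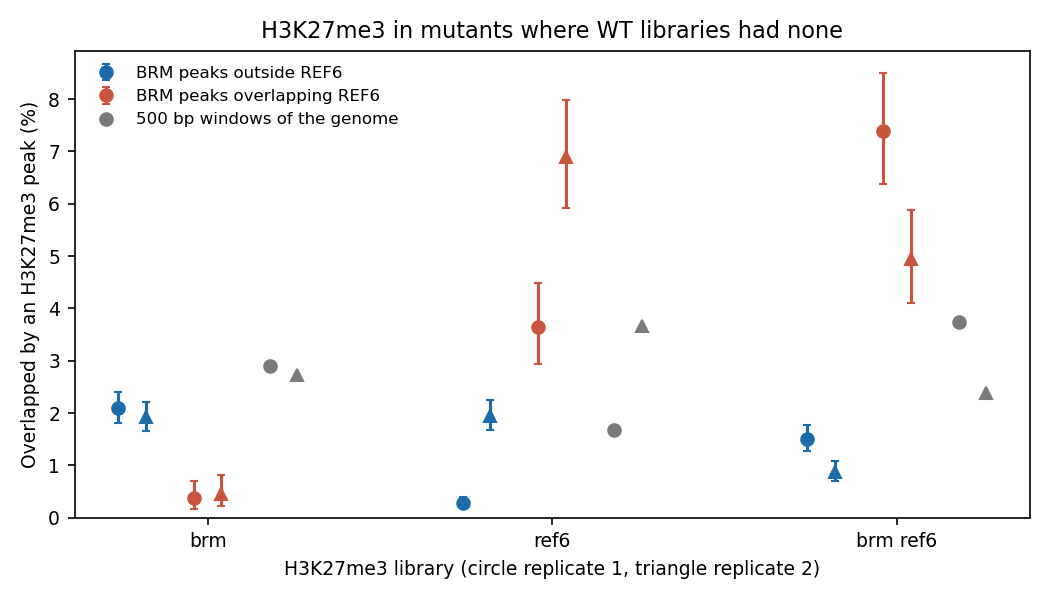
Percent overlapped by an H3K27me3 peak in each mutant library (circle replicate 1, triangle replicate 2) for the 9417 BRM peaks outside REF6, the 2409 overlapping REF6 and 212702 windows of 500 bp, all without wild-type H3K27me3. Bars are exact 95% intervals for counting error, drawn for the peak classes. BRM peaks outside REF6 lie above REF6-overlapping ones in brm and below them in ref6 and brm ref6, and they lie below the windows in all 6 libraries.

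New mark at these sites was rarer than over the genome at large, and so was mark seen in only 1 wild-type list. Of 212702 windows of 500 bp without wild-type mark, 2.89% and 2.73% were touched in brm, 1.68% and 3.66% in ref6 and 3.73% and 2.39% in brm ref6. In each of the 6 libraries the value for the BRM sites was lower than that for the windows. The median BRM site is 525 bp wide, close to a window. The single-list rules gave the same order without any mutation. Wild-type replicate 2 marked 0.644% of peaks and 1.21% of windows outside replicate 1. Wild-type replicate 1 marked 1.06% of peaks and 1.87% of windows outside replicate 2. The lower share is therefore not particular to the mutants.

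Both brm libraries marked 106 of the 9417 sites. The background was 110 of all 11826 first-list BRM peaks without wild-type mark (0.93%) and 1.58% of windows. The 11826 peaks include the 9417 sites, so the 2 shares are not independent. Both ref6 libraries marked 16 (background 88 of 11826 peaks, 0.744%, and 1.33% of windows). Both brm ref6 libraries marked 67 (background 173 of 11826 peaks, 1.46%, and 1.9% of windows). Marking in both libraries of brm and in both of no other mutant was found at 77 sites (background 80 of 11826 peaks, 0.676%). For brm ref6 this held at 33 sites (background 82, 0.693%) and for ref6 at 6 (background 22, 0.186%). Brm and brm ref6 shared 24 sites (background 25 of 11826 peaks, 0.211%), and ref6 and brm ref6 shared 5 (background 61, 0.516%). Another 5 were marked in both libraries of all 3 mutants (background 5, 0.0423%). No mutant library marked 9001 sites, 201 were marked in 1 library and 5 in all 6.

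Most marked sites were covered in part. The median marked peak was covered over 23.8% to 31.4% of its length. Wild-type H3K27me3 lay less than 1000 bp away for 98 of the 197 marked sites in brm replicate 1, 92 of 181 in replicate 2 and 139 of 183 in ref6 replicate 2, against 980 (10.4%) of all 9417. In brm ref6 the counts were 55 of 142 and 25 of 83. Marked sites were thus closer to wild-type domains than the whole set, and the part of domain width in these counts was not tested.

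A small set was covered over at least 50% of its length in both libraries of a genotype. Such sites numbered 19 for brm (background 20 of 11826 first-list BRM peaks without wild-type mark, 0.169%). They numbered 0 for ref6 (background 26, 0.22%) and 9 for the double mutant (background 42, 0.355%). In single libraries the counts were 53 and 37 in brm, 0 and 45 in ref6 and 41 and 9 in brm ref6. The 0 for ref6 is thus set by replicate 1 alone. For scale, with the single-list rules 0 of 9478 peaks were covered this far in wild-type replicate 2. The counts were 71 and 50 in the brm libraries, 0 and 64 in ref6 and 50 and 14 in brm ref6. With the other list, 13 of 9518 were covered in wild-type replicate 1, against 88 and 58 in brm, 2 and 78 in ref6 and 61 and 17 in brm ref6. Wide coverage in a single library was thus not particular to brm. Among REF6-overlapping BRM peaks, those covered this far in both libraries numbered 1 for brm, 26 for ref6 and 33 for brm ref6. Of the 19 sites in brm, 9 were at least 1000 bp from any wild-type mark, as were 6 of the 9 in brm ref6.

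Sites beside MIR156d and at SMZ, of the 8 bound phase-change genes, were among those covered this far. No site at the other bound genes of that list reached this in both libraries of a genotype. These were RAP2.7, SNZ, SPL15, TOE2, MIR156b and MIR156h. The peak beside MIR156d, a microRNA gene that holds plants in the juvenile phase by targeting SPL transcripts, lay 96 bp from it across one end of AT5G10946, the locus whose body holds MIR156d (chr5:3456846-3457948, BRM score 518). H3K27me3 covered 71.9% and 72.8% of it in brm, 0 in both ref6 libraries, and 88.2% and 51.2% in brm ref6. The MIR156d gene itself was covered over 100% in all 4 libraries without BRM and 0 in the 4 with it. The nearest wild-type mark was 16088 bp away.

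SMZ encodes an AP2-type repressor of flowering that is a target of miR172. Its site (chr3:20376081-20376810, BRM score 285) was covered over 100% and 75.9% in brm, 0 and 0 in ref6 and 47.9% and 26.4% in brm ref6, with the nearest wild-type mark 20208 bp away. The peak was also in 1 of the later BRM-GFP lists (ref6 replicate 2, score 90.0). At both loci the libraries without BRM were marked and those with BRM were not.

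MIR166a, a microRNA gene acting on the class III HD-ZIP regulators of leaf polarity, was at one of the 5 sites marked in all 6 mutant libraries (chr2:19175620-19176592, BRM score 730). The site was covered over 100% and 91.2% in brm, 20.3% and 70.6% in ref6 and 100% and 73.8% in brm ref6. Wild-type mark lay 279 bp away, and the site was in all 3 later BRM lists (76.4, 105 and 147).

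Other sites covered in brm with no wild-type mark within 1000 bp included the glucosyltransferase gene UGT84A3 (95.1% and 51.5% in brm, 16.3% and 13.4% in brm ref6, 0 in ref6) and the phloem lectin-family gene PP2-A14 (99.2% and 99.3%, 23.1% and 0, and 0). AT2G42040 had 70.3% and 56.6% in brm and 0 in the other 4 mutant libraries. AT1G24140, a matrix metalloproteinase gene with the highest BRM score of the set (822), had 62.9% and 61.8% in brm, 0 and 59.9% in ref6 and 53.4% and 36.7% in brm ref6. A site 1040 bp from AT4G34760, an auxin-induced growth gene also called SAUR50, had 82.1% and 100% in brm alone.

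PAR2 and KDR encode atypical bHLH proteins of light and growth responses. The PAR2 site, 530 bp from the gene, was covered over 80.9% and 72.6% in brm, 30.5% and 100% in ref6 and 73.9% and 38.6% in brm ref6. The KDR site, 623 bp from wild-type mark, was covered over 100% and 69.7% in brm and 0 in the other 4. The rest of the brm set was AT3G11110, 11788 bp from wild-type mark, and sites beside wild-type domains: the jasmonate biosynthetic gene AOC2 (98.2% and 72.1%, wild-type mark 952 bp away), PSK4 with 2 sites, GLIP3, AT2G39520 with 2 sites, AT4G23870 and AT4G01460.

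Some sites of brm ref6 were bare or nearly bare in brm. GSTF7, a glutathione transferase gene, was covered over 100% in both brm ref6 libraries, 48.5% and 100% in ref6 and 0 in brm (BRM score 58.7), with a first-list REF6 peak 135 bp away. AT1G65484 (100% and 58.1% in brm ref6, 0 elsewhere) had one 103 bp away, AT3G12970 (55.9% and 50.7%, with 16.4% and 0 in brm) one 71 bp away and AT5G39030 (64.6% and 53.5%) one 2044 bp away. PRE1, a growth-promoting bHLH gene, did not reach 50% in both libraries of any genotype but was marked in both of ref6 (36.1% and 64.3%) and of brm ref6 (36.8% and 12.6%) and not in brm.

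**Figure D5:**
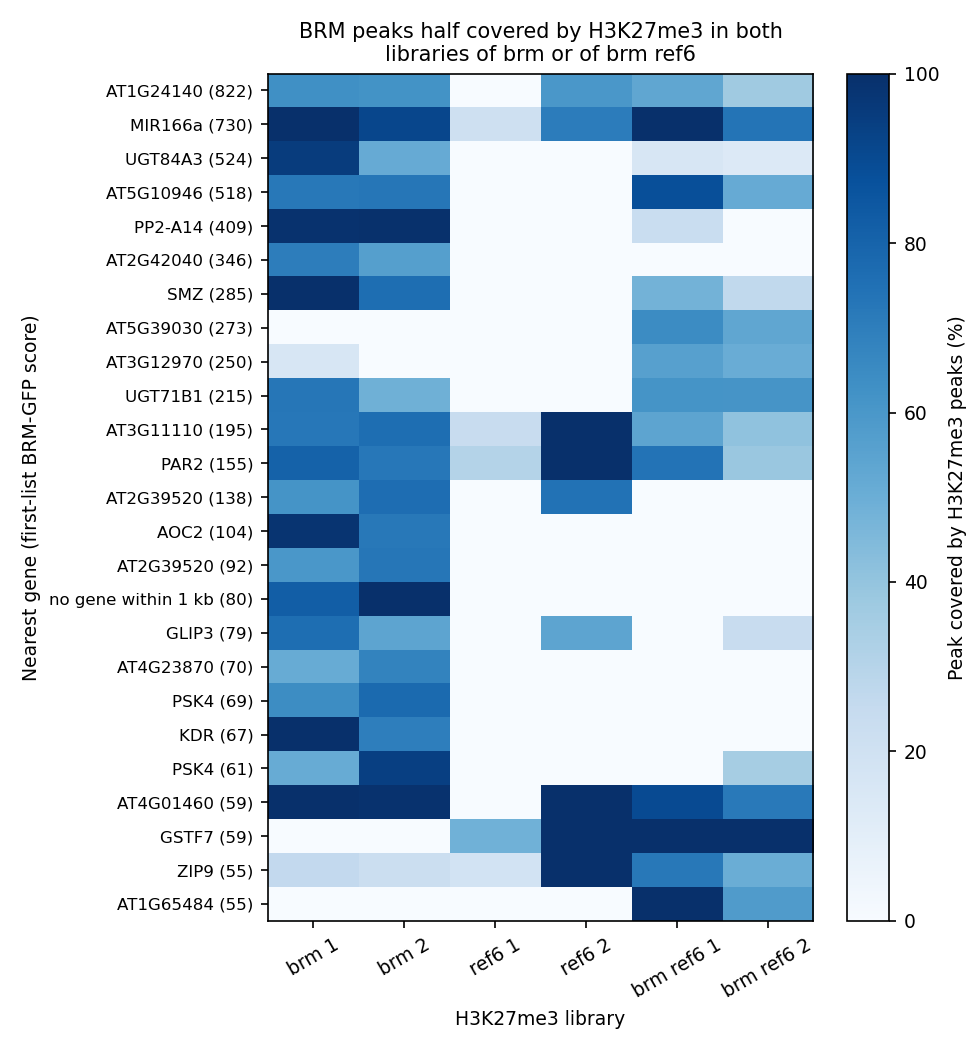
Percent of each site covered by H3K27me3 peaks in the 6 mutant libraries, for the 25 distinct sites covered over at least 50% in both brm or both brm ref6 libraries; labels give the nearest gene and the BRM score, and PSK4 and AT2G39520 have 2 sites each. Most sites are dark in both brm columns, which is the choice itself for the 19 sites taken from brm. They are pale in ref6 replicate 1, which covered 0 of the 9417 sites over at least 50%. GSTF7 and AT1G65484 are dark in brm ref6 and empty in brm.

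Few whole genes at these sites changed their marking. A gene was called gained when H3K27me3 covered at least 50% of its body in both mutant libraries and in neither wild-type library, and lost in the reverse case. Among the 6445 protein-coding genes assigned a site, 38 were gained in brm (0.590%, background 1.44% of all protein-coding genes), 19 in ref6 (0.295%, background 1.3%) and 33 in brm ref6 (0.512%, background 1.81%). Losses were 3 (background 0.051%), 6 (background 0.375%) and 13 (background 0.627%). The rule leaves out sites with wild-type mark, and 2.22% and 1.85% of these genes were marked over at least 50% of the body in the wild-type libraries, against 10.6% and 9.50% of all protein-coding genes.

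Genes gained in brm from no wild-type coverage included AT4G34760 (70.8% and 64.3% of the body, 0 in all ref6 and brm ref6 libraries, best BRM score 1255) and AT3G14060 (68.6% and 74.3%, 63.0% and 32.7% in brm ref6). AT4G33040 had 93.9% and 73.7%, with 20.5% and 0 in brm ref6. CLE44, the gene of a peptide that keeps vascular stem cells dividing, went from 0 to 63.4% and 79.2% in brm and 58.6% and 52.7% in brm ref6, with 10% and 34.7% in ref6. The seed dormancy gene DOG1 rose from 39.2% and 45.1% in wild type to 67.3% and 65.3% in brm, a smaller step across the same bound.

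Genes gained in ref6 were mostly free of mark in brm. NAC003 was covered over 73.4% and 79.9% in ref6, 86.3% and 55.9% in brm ref6 and 0 in wild type and brm. NAC004 and NAC048 showed the same pattern, as did SEOR1, a phloem filament protein gene (68.4% and 96.7% in ref6, 81.5% and 80.3% in brm ref6, 0 in brm). In the other direction WRKY23, an auxin-responsive root regulator, went from 75.8% and 70.9% in wild type to 0 in both brm libraries and 0 and 14.4% in brm ref6, with 72.7% and 80.9% in ref6.

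Of 326 microRNA genes 71 were bound, led by MIR827 (1358), which acts in phosphate starvation, MIR823 (1013) and MIR159a (938). Their bodies gained H3K27me3 in brm at 18 of the 326, in ref6 at 2 and in brm ref6 at 5. Of those with a site, 2 were gained in brm, namely MIR166a and MIR156d, and the same 2 in brm ref6. The other 16 gained in brm had no BRM site of this class on or within 1000 bp of them. MIR156b and MIR156h, relatives of MIR156d with scores of 163 and 102.5, held no mark on the gene in any of the 8 libraries.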

How the data were processed

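Each of the 17 lists used here holds the peaks of 1 library. The submitters' processing notes name TAIR10 as the genome, Bowtie2 2.2.5 for alignment and MACS 1.4 for peak calling. Which control was used and with what options is not given in the sources used here. The 10 inputs were left out. The deposited score rises with the negative logarithm of the peak's p-value, and its minimum of 50 stands for 1e-05. It was used to rank and filter peaks within a list.

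The BRM peaks studied here, the gene lists and the tests were chosen with earlier results of these data known. Lists overlapped when peaks shared at least 1 bp. Shares were computed per library and compared between genotypes by exact permutation over libraries, two-sided on the absolute difference, and between peak classes by exact sign flips. P-values were adjusted over 7 tests (Benjamini-Hochberg, threshold 0.05). The routines were tested on simulated data. Intervals are exact Clopper-Pearson, 95%, and cover counting error only. The background was all first-list BRM peaks, 500 bp windows of the genome or all protein-coding genes.

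Gene names come from the RefSeq table of TAIR10.1. Shifting the peaks by 1000 or 2000 bp lowered the share across a gene end from 56.2% to 59.9% to between 23.4% and 27.6% on the 5 chromosomes. Genes named are the 10 peaks with the highest first score, the 10 with the highest lowest score over the later BRM-GFP lists, up to 10 per mutant by the lower score of the mark, up to 5 per direction found in wild type or ref6 alone, up to 4 per gene list, and 3 on each side of the rule. Sites covered over at least 50%, and gene bodies gained or lost, were added after their values were seen, as were further genes of a list, named with their scores or as unbound. The planned motif search was not run, since no sequence was at hand. Python 3.11.15, NumPy 2.4.6, SciPy 1.17.1, pandas 2.3.3 and Matplotlib 3.10.9 were used.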

Additional observations from a re-analysis of the deposited data

Results flagged for a closer look

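The difference in marking between BRM peaks outside REF6 and REF6-overlapping BRM peaks had opposite signs in opposite genotypes. It was positive in both brm libraries (1.72 and 1.47 percentage points) and negative in both ref6 libraries (−3.38 and −4.95), so that brm exceeded ref6 by 5.75 points. It was also negative in both brm ref6 libraries (−5.88 and −4.06), so that brm exceeded brm ref6 by 6.56 points. Neither difference was tested.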

How the results depend on the processing

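Of 127 recomputed values, 92 kept their direction or, for counts and shares, stayed close, 7 reversed and 28 counts or shares moved. No test passed its threshold under any setting, and with so few libraries none could after adjustment. The smallest possible exact permutation p before adjustment was 0.333, 0.25 or 0.0313 in the main setting, depending on the test. The mean class difference in the mark over the mutant libraries kept its sign in each alternative run, as did that in the later BRM lists. The former pools brm, where it was positive, with ref6 and brm ref6, where it was negative. It is therefore not an order common to the genotypes. With scores of at least 100, sites marked in both libraries numbered 41 for brm, 1 for ref6 and 22 for the double mutant, 57 were in all later BRM lists, and 0.329% of peaks outside wild-type replicate 1 were marked in replicate 2. With at least 50% of the peak covered these were 19, 0, 9, 18 and 0, brm minus wild type in the later REF6-GFP lists turned to 0.0159 points, brm minus ref6 was 0.239 points, and the classes differed by −1.63 points in the later BRM lists. Sites at least 1000 bp from wild-type mark gave 53 in brm and 8 in ref6, and the wild-type share is then 0 by construction. Lists of equal length gave 34, 5 and 18 and a wild-type share of 0.211%. They reversed brm minus ref6 (−0.276), brm ref6 minus ref6 (−0.595) and ref6 minus wild type in the later BRM lists (−0.860). The cause was not tested. With the wild-type replicates swapped the share was 1.06%. A rule with wild-type library 1 alone, added after seeing the data, gave 25 sites in ref6, and library 2 alone gave 173, 35 and 102.

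Leaving out a library gave 0.0637 (without ref6 replicate 1) to 1.73 points for brm minus ref6, 0.499 to 1.13 for brm minus brm ref6 and −0.749 to 0.919 for brm ref6 minus ref6, which was also −0.228 without brm ref6 replicate 1. Mean class differences were −3.36 to −1.84 points in the mark and −9.19 to −6.08 in the later BRM lists. Ref6 minus wild type there ranged from 1.60 to 2.93, and brm minus wild type in REF6-GFP from −0.101 to 0.0478 (without wild-type replicate 2). With 1 library left per genotype the counts, which then need no second library, were 181 to 197 for brm, 26 to 183 for ref6 and 83 to 142 for the double mutant. Sites in all the remaining later BRM lists numbered 237 to 333, the highest without wild type.

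A replicate block averages the same differences and so could not change them (0.897, 0.812, 0.0850 and −0.0266 points). These values are nevertheless counted among the 92 above. For brm minus brm ref6 the exact sign-flip permutation p with the block was 0.5, and the exact permutation p without it was 0.333. Replicate deviations correlated at −0.081, 0.0954 and −0.336 between H3K27me3 genotypes and 0.631 between the REF6-GFP groups, and with 2 pairs the numbers were not taken as pairing. No paired analysis was possible for the later BRM-GFP lists because wild type has 1 library. Members outside all REF6-GFP lists cannot give a REF6-GFP share, and leaving out wild type cannot give the later BRM contrast.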
